A study of Mus musculus with 12 samples.

Results

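Expression of 35 genes of liver endothelial cells was examined in 12 RNA-seq libraries of mouse liver. The genes were chosen by name as markers of sinusoidal and vascular endothelium, ligands that endothelial cells send to hepatocytes, and endothelial transcription factors. The choice was made with earlier results of these data known, so comparisons of their shares with those of all genes are descriptions only. The table writes symbols in capitals (STAB1, STAB2 and CLEC4G, for example), given here in mouse spelling. All 35 are among the 56441 genes of the count table, and all 35 passed the filter on low counts that left 15228 genes for testing. The libraries form 4 groups of 3. The ob/ob FH and ob/ob vector groups are mice without functional leptin that were kept on a high-fat diet, and the fasted FH and fasted vector groups are C57BL/6 mice fasted for 24 h before collection. All mice received an AAV8 vector by tail vein at 6 to 8 weeks of age, 1 month before collection, which carried fumarate hydratase (FH, the enzyme that turns fumarate into malate) in the FH groups and was the vector control in the others. The series asks what added FH does to a fatty liver. The submitters call the vector liver-specific, and the promoter behind FH is not known here. Strain, diet and fasting change together between the ob/ob and the fasted mice and cannot be told apart. Whether the 3 libraries of a group stem from different mice is not stated, and p-values measure only the spread between these libraries, which may be technical.

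Liver sinusoids are lined by endothelial cells with open pores and no continuous basement membrane. These cells clear proteins, hyaluronan and immune complexes from blood through scavenger receptors such as stabilin-1 and stabilin-2. They also signal to hepatocytes: Wnt2, Wnt9b and Rspo3 maintain the gene program of hepatocytes around the central vein, and Bmp2 drives hepatocytes to make the iron hormone hepcidin. When sinusoids lose their pores, a change called capillarization, the scavenger receptors tend to be lost while markers of continuous vessels are gained.

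Library totals were 21632289 to 23506015 counts in ob/ob FH, 12573267 to 14496559 in ob/ob vector, 19107050 to 25873379 in fasted FH and 12231828 to 14884323 in fasted vector. Levels are CPM, counts scaled to a common library size after TMM scaling, which sets library sizes so that most genes do not differ. The TMM factors were 0.722 to 0.907 in the FH libraries and 1.12 to 1.37 in the vector libraries. Scaling to library totals instead shifted the log2 fold change of FH over vector of all genes by a median of -0.62 in ob/ob livers and -0.67 in fasted livers, so directions that depend on this choice are given on both scales. Fh1 was higher with FH in both models (log2 fold change 2.48 in ob/ob and 1.35 in fasted livers, edgeR adjusted p = 1.79e-06 and 9.95e-05). The female transcript Xist had 2242 to 4992 counts in the 3 ob/ob FH libraries, which had no count of Y-linked genes, while the other 9 held at most 24 Xist counts and at least 2304 Y-linked counts, so sex and FH cannot be told apart in the ob/ob comparison. The albumin gene Alb took 7.90% to 11.1% of counts in FH libraries and 3.70% to 5.57% in vector libraries, and the nuclear RNA Malat1 stood at 10.5 to 58.4 CPM on library totals in FH libraries against 472 to 687 in vector libraries. The part of these differences in the results below was not tested. ob/ob vector replicate 2 lay apart from its group, and results are given without it where they depend on it.

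The labels name hepatocytes as the cell type, yet every endothelial gene was counted in every library. The 35 genes together took 0.0652% to 0.0853% of counts in ob/ob FH, 0.0748% to 0.0878% in ob/ob vector, 0.0288% to 0.0328% in fasted FH and 0.0828% to 0.103% in fasted vector. On the TMM scale their summed level was 886 ± 83.0 CPM in ob/ob FH against 619 ± 64.4 CPM in ob/ob vector, and 425 ± 27.5 CPM in fasted FH against 813 ± 78.7 CPM in fasted vector (SD, n = 3 each). The fasted FH libraries thus formed the low group on either scale, with no overlap with any other library. These levels are relative to the other RNA in each library. In bulk liver, fewer endothelial cells, less RNA per endothelial cell and more RNA from other cells cannot be told apart. Within groups the median coefficient of variation of the 35 genes was 11.2% in ob/ob FH, 15% in ob/ob vector, 13.2% in fasted FH and 12.9% in fasted vector.

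**Figure D1:**
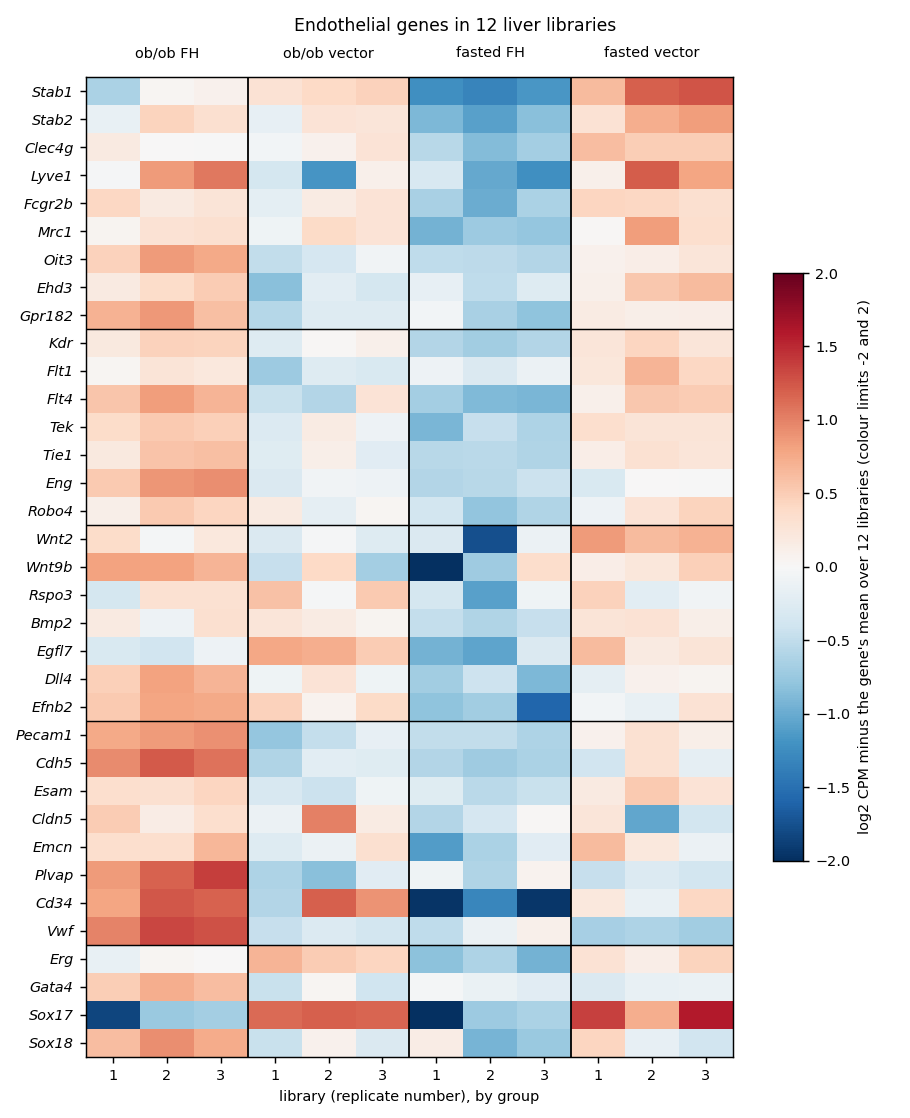
Log2 CPM of each of the 35 endothelial genes (rows) in each of 12 libraries (columns), as the difference from the gene's mean over all libraries, grouped by model and vector. Most genes were lowest in the 3 fasted FH libraries, while Egfl7, Erg and Sox17 were low in the FH libraries of both models.

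With FH most of the endothelial genes were lower in fasted livers on either scale, while in ob/ob livers more were higher on the TMM scale and more were lower on library totals. In ob/ob livers 18 of the 35 genes were higher with FH and 4 were lower (edgeR quasi-likelihood test, Benjamini-Hochberg adjusted p under 0.05), against 25.8% and 27.9% of all genes tested, and the median log2 fold change was 0.52. On library totals this became 6 higher and 10 lower, against 6.83% and 53.3% of all genes, with a median of -0.10, so the general rise in ob/ob livers depends on the scaling. In fasted livers 28 of the 35 genes fell with FH and 1 rose, against 27.6% and 27.4% of all genes, and the median was -0.80. On library totals 32 fell (55.7% of all genes did) and the median was -1.47, below the shift of all genes. The log2 fold change in ob/ob minus that in fasted livers was called positive for 28 of the 35 genes, with a median of 1.37, while 4.77% of all genes had such a difference in that direction and the median over all genes was -0.10. This count was also 28 on library totals (4.74% of all genes), and it ranged from 20 to 29 when single libraries were left out. It was 20 without ob/ob FH replicate 2 or replicate 3, where such calls over all 15228 genes numbered 380 and 425, against 726 with all libraries. Without ob/ob vector replicate 2 the counts were 18 higher and 4 lower in ob/ob livers and 29 for the difference. Over all genes these were 3806, 4000 and 885.

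The calls sorted the genes into a few patterns. A fall in fasted livers together with a rise in ob/ob livers was called for 14 genes (40% of them), against 1.06% of all genes: Lyve1, Oit3, Ehd3, Gpr182, Kdr, Flt1, Flt4, Tek, Tie1, Eng, Dll4, Pecam1, Cdh5 and Esam. On library totals 4 of these 14, Oit3, Gpr182, Pecam1 and Cdh5, had both calls (11.4% of the 35 genes, against 0.486% of all genes), and in ob/ob livers Kdr, Flt1, Tek, Tie1 and Dll4 turned below 0 there. On the TMM scale a fall in both models was called for Stab1, Egfl7, Erg and Sox17, a share of 11.4% against 18.8% of all genes, and a rise in both for Vwf alone (18.9% of all genes). The 2 FH comparisons share no libraries. On the TMM scale a further 10 genes fell in fasted livers without a call in ob/ob livers. Plvap, Gata4 and Sox18 rose in ob/ob livers without a call in fasted livers, and Wnt9b, Rspo3 and Cldn5 passed in neither. The share of all genes with these patterns was not counted. Of all genes 27.6% fell in fasted livers and 25.8% rose in ob/ob livers. On library totals 18 genes fell in fasted livers without a call in ob/ob livers, Gata4, Sox18 and Wnt9b among them. Of these 18, 5 had the same pattern on the TMM scale, and 55.7% of all genes fell in fasted livers on library totals.

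**Figure D2:**
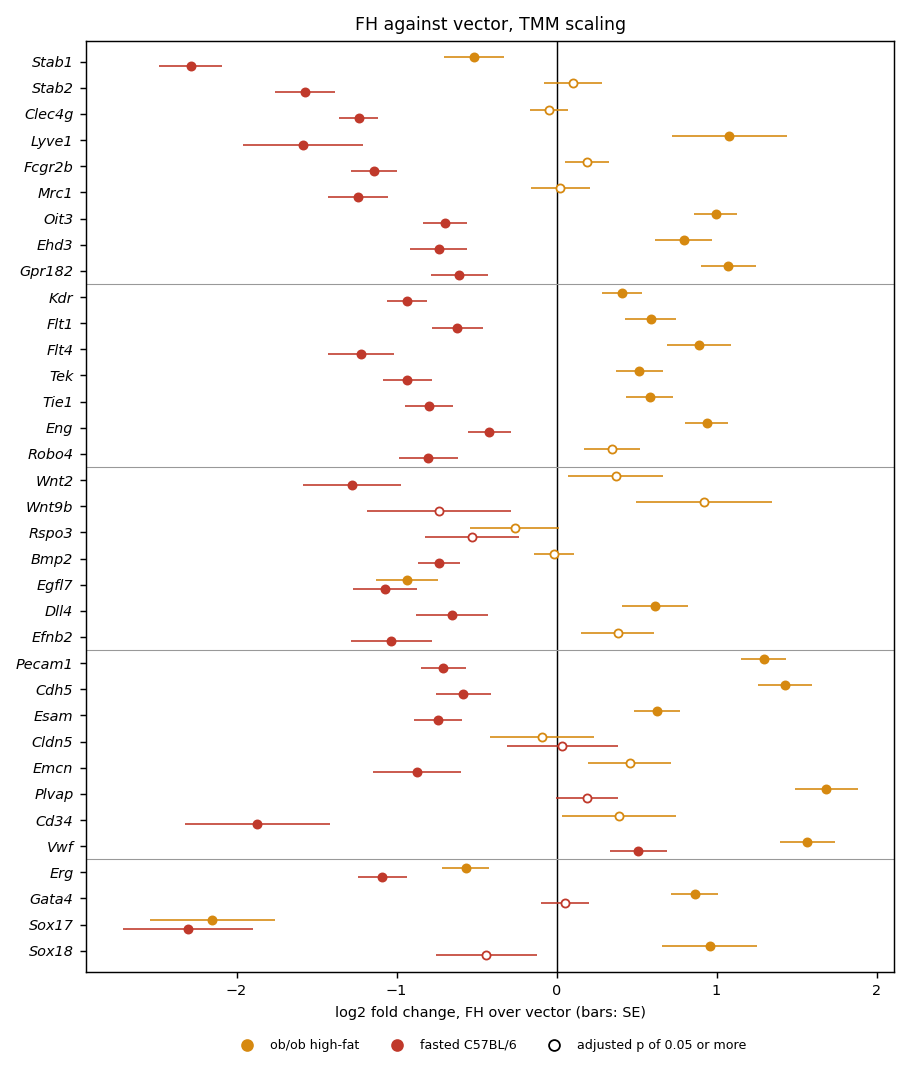
Log2 fold change of FH over vector on the TMM scale for each gene, ob/ob above fasted in each row, with SE bars derived from the F statistic; filled points passed an adjusted p of 0.05 and lines separate the role classes. The fasted points lie mostly left of 0 and the ob/ob points mostly right of it, but 13 genes with a positive ob/ob value on this scale turned negative on library totals.

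All 9 sinusoidal markers and scavenger receptors fell in fasted livers, against 27.6% of all genes. In ob/ob livers 4 rose and 1 fell, against 25.8% and 27.9% of all genes. On library totals 2 rose and 5 fell in ob/ob livers, against 6.83% and 53.3% of all genes, so the share that fell was near that of all genes. Stab1, which encodes stabilin-1, showed the deepest fall of the 9. It stood at 19.7, 31.4 and 32.4 CPM in ob/ob FH against 37.2, 40.3 and 41.9 CPM in ob/ob vector, and at 13.1, 12.3 and 13.6 CPM in fasted FH against 47.5, 70.2 and 72.9 CPM in fasted vector. All 3 FH libraries lay below all 3 vector libraries in each model. The fall was 1.43-fold in ob/ob livers (log2 fold change -0.52, SE 0.19, adjusted p = 0.0326) and 4.88-fold in fasted livers (log2 fold change -2.29, SE 0.20, adjusted p = 2.61e-06), and the ob/ob call was lost without FH replicate 1 or vector replicate 3 (adjusted p at most 0.137).

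Stab2, which encodes the hyaluronan-clearing stabilin-2, was at 38.9, 58.4 and 53.8 CPM in ob/ob FH against 38.1, 51.9 and 50.7 CPM in ob/ob vector, and the groups overlapped (log2 fold change 0.10, SE 0.18, adjusted p = 0.660). In fasted livers it was at 22.96, 20.2 and 24.1 CPM with FH against 52.2, 71.3 and 76.8 CPM with vector. Every fasted FH library was below every fasted vector library, a 2.98-fold fall (log2 fold change -1.57, SE 0.19, adjusted p = 1.86e-05). Clec4g, a C-type lectin of the sinusoidal surface, averaged 33.1 ± 2.41 CPM in ob/ob FH and 34.2 ± 3.86 CPM in ob/ob vector, which overlapped (log2 fold change -0.05, SE 0.12, adjusted p = 0.764). In fasted livers it averaged 19.6 ± 2.10 CPM with FH and 46.1 ± 2.39 CPM with vector, a 2.36-fold fall (log2 fold change -1.24, SE 0.12, adjusted p = 5.44e-06). Mrc1, the mannose receptor, and Fcgr2b, an inhibitory Fc receptor that takes up immune complexes, are also made by Kupffer cells. Mrc1 had a log2 fold change of 0.02 in ob/ob and -1.24 in fasted livers, and Fcgr2b of 0.19 and -1.14, with only the fasted values called. On library totals Stab2, Clec4g, Mrc1 and Fcgr2b were called lower with FH in ob/ob livers, with log2 fold changes of -0.51, -0.67, -0.59 and -0.43. There the median over all genes was -0.63, and 53.3% of all genes were called lower.

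The other sinusoidal markers moved in opposite directions in the 2 models. Oit3, a zona pellucida domain protein, was at 31.4, 40.96 and 38.5 CPM in ob/ob FH against 16.1, 17.96 and 21.5 CPM in ob/ob vector, and at 15.9, 15.8 and 15.1 CPM in fasted FH against 24.03, 24.99 and 26.8 CPM in fasted vector. Neither pair overlapped, with a 1.99-fold rise in ob/ob livers (log2 fold change 0.995, SE 0.13, adjusted p = 4.68e-05) and a 1.62-fold fall in fasted livers (log2 fold change -0.69, SE 0.14, adjusted p = 0.000790). Gpr182, an atypical chemokine receptor, rose 2.11-fold in ob/ob livers (log2 fold change 1.07, SE 0.17, adjusted p = 0.000185) and fell 1.52-fold in fasted livers (log2 fold change -0.61, SE 0.18, adjusted p = 0.00995). Ehd3, an ATPase of membrane trafficking, had log2 fold changes of 0.80 and -0.73, both called. Lyve1, a hyaluronan receptor, varied widely within groups. It was at 12.3, 22.6 and 25.9 CPM in ob/ob FH against 9.80, 5.51 and 13.4 CPM in ob/ob vector, groups that overlapped, and at 10.03, 6.15 and 5.35 CPM in fasted FH against 13.5, 29.1 and 21.6 CPM in fasted vector, which did not. Its ob/ob rise (log2 fold change 1.08, SE 0.36, adjusted p = 0.0217) was lost without FH replicate 2, FH replicate 3 or vector replicate 2 (adjusted p at most 0.0903), and on library totals (adjusted p = 0.287). The Ehd3 rise in ob/ob livers was also lost on library totals (log2 fold change 0.18, adjusted p = 0.426).

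**Figure D3:**
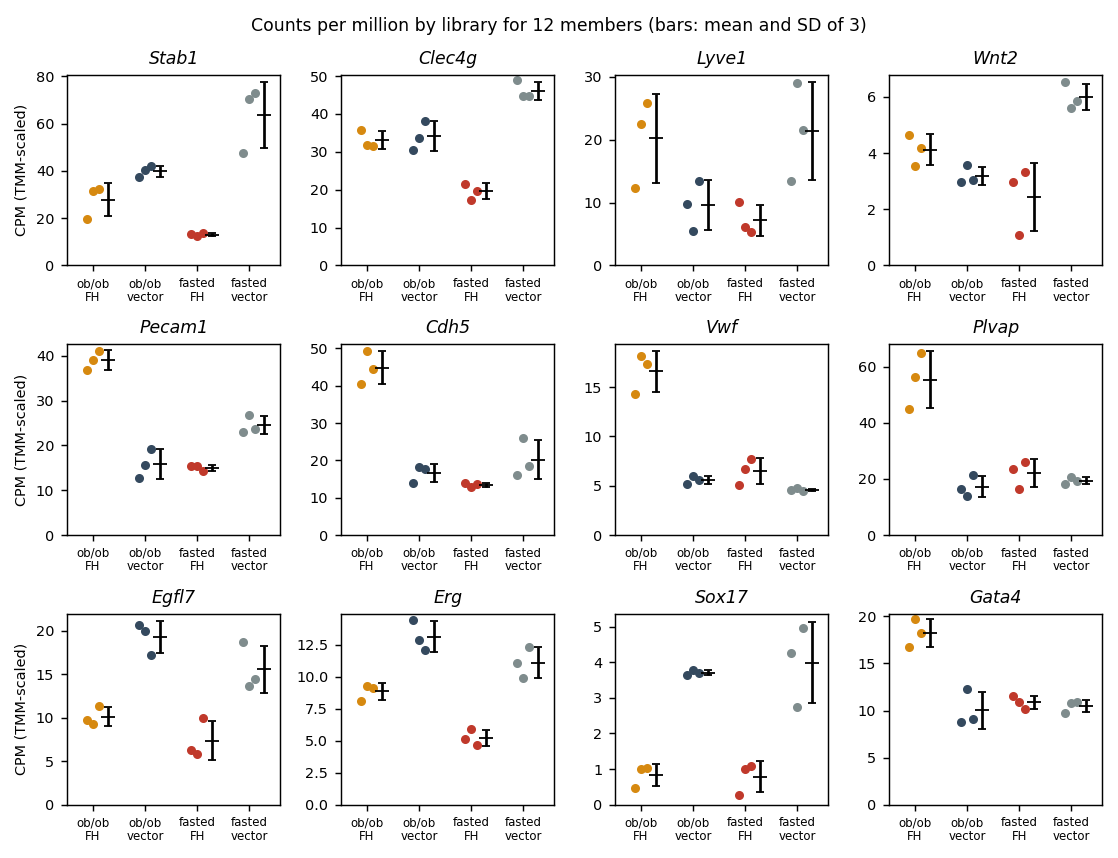
TMM-scaled CPM of 12 of the genes in each library, with the mean and SD of 3 libraries beside the points, ob/ob FH and vector to the left of fasted FH and vector. Egfl7, Erg and Sox17 were lower with FH in both models, Vwf was higher in both, and Pecam1 and Cdh5 were higher in ob/ob but lower in fasted livers with FH; on library totals the Vwf difference in fasted livers was negative (log2 fold change -0.16).

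The 7 endothelial receptors all fell in fasted livers, and 6 of them rose in ob/ob livers on the TMM scale. Of all genes 27.6% fell in fasted livers and 25.8% rose in ob/ob livers on that scale. Kdr encodes the main signalling receptor for the growth factor VEGF-A. It was at 43.7, 52.6 and 51.9 CPM in ob/ob FH against 31.9, 38.9 and 40.8 CPM in ob/ob vector, and at 25.4, 23.5 and 25.5 CPM in fasted FH against 45.3, 51.3 and 45.4 CPM in fasted vector. Neither pair overlapped: the rise in ob/ob livers was 1.33-fold (log2 fold change 0.41, SE 0.12, adjusted p = 0.0124), lost without FH replicate 2 or vector replicate 1 (adjusted p at most 0.0625) and negative on library totals (-0.21), and the fall in fasted livers was 1.91-fold (log2 fold change -0.93, SE 0.13, adjusted p = 4.54e-05). Flt4, the receptor for VEGF-C and VEGF-D, showed the widest split among the receptors, with 31.8 ± 2.99 CPM in ob/ob FH against 17.2 ± 5.79 CPM in ob/ob vector and 11.2 ± 0.988 CPM in fasted FH against 25.998 ± 4.16 CPM in fasted vector. Its FH effects differed by 2.11 log2 units between the models (SE 0.28, adjusted p = 0.00151).

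Flt1, a VEGF receptor that also acts as a decoy, had log2 fold changes of 0.59 in ob/ob and -0.62 in fasted livers. The angiopoietin receptor gene Tek had 0.52 and -0.93, and its relative Tie1 had 0.58 and -0.80. Eng, a co-receptor for BMP9 and TGF-beta, had 0.94 and -0.42, and its fasted call was lost without FH replicate 1 or 2 or vector replicate 2 or 3 (adjusted p at most 0.0616). All of these were called on the TMM scale, yet in ob/ob livers Flt1, Tek and Tie1 stood at -0.03, -0.10 and -0.03 on library totals, where the smallest adjusted p of the 7 receptors in that model was 0.0757, for Eng. Robo4, a guidance receptor of vessels, fell in fasted livers (log2 fold change -0.80, SE 0.18, adjusted p = 0.00230) and was not called in ob/ob livers (log2 fold change 0.35, SE 0.18, adjusted p = 0.112).

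Among the ligands, Egfl7 fell in both models. Egfl7, a secreted protein of the vessel matrix, was at 9.73, 9.25 and 11.3 CPM in ob/ob FH against 20.7, 20.005 and 17.2 CPM in ob/ob vector, and at 6.29, 5.81 and 9.91 CPM in fasted FH against 18.6, 13.6 and 14.4 CPM in fasted vector. The groups did not overlap in either model, with falls of 1.91-fold (log2 fold change -0.93, SE 0.19, adjusted p = 0.00120) and 2.11-fold (log2 fold change -1.07, SE 0.20, adjusted p = 0.000531). In the GENCODE annotation its exons overlap those of Agpat2 on the other strand and of Gm20532 on its own. Of the 35 genes 11 share exon sequence with a gene on the other strand, a protein-coding one for Stab1 (Nt5dc2), Gpr182 (Zbtb39), Eng (Fpgs) and Egfl7. How strand was handled in counting is unknown here, so reads of such pairs may not be told apart.

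The Wnt ligands of the central vein were counted at low levels. Wnt2 was at 4.66, 3.54 and 4.17 CPM in ob/ob FH against 2.96, 3.57 and 3.03 CPM in ob/ob vector (log2 fold change 0.37, SE 0.30, adjusted p = 0.312), and at 2.97, 1.07 and 3.32 CPM in fasted FH against 6.52, 5.62 and 5.84 CPM in fasted vector (log2 fold change -1.28, SE 0.31, adjusted p = 0.00317). The fasted groups did not overlap and the ob/ob groups did. Wnt9b, with 5 to 49 counts per library, was not called in ob/ob livers (log2 fold change 0.92, SE 0.42, adjusted p = 0.0814) or in fasted livers (log2 fold change -0.74, SE 0.45, adjusted p = 0.181). Rspo3, which amplifies Wnt signals, was not called either (-0.26 in ob/ob and -0.53 in fasted livers). On library totals it was lower with FH in both (-0.88 and -1.20), where the medians over all genes were -0.63 and -0.71. Wnt9b was called lower in fasted livers on that scale (log2 fold change -1.41, edgeR adjusted p = 0.0158), as were 55.7% of all genes.

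Bmp2 was at 20.6, 16.9 and 22.7 CPM in ob/ob FH against 21.6, 20.4 and 18.9 CPM in ob/ob vector, which overlapped (log2 fold change -0.02, SE 0.13, adjusted p = 0.929). In fasted livers it was at 13.1, 11.96 and 13.1 CPM with FH against 21.6, 22.2 and 19.6 CPM with vector and fell 1.66-fold (log2 fold change -0.73, SE 0.13, adjusted p = 0.000381). On library totals Bmp2 was also lower in ob/ob livers (log2 fold change -0.64), near the median over all genes of -0.63. On that scale 53.3% of all genes were called lower there. Dll4, a Notch ligand, had log2 fold changes of 0.61 in ob/ob and -0.65 in fasted livers, both called and both lost when single libraries were left out. For Dll4 these were FH replicates 2 and 3 and vector replicates 1 and 3 in ob/ob livers (adjusted p at most 0.0873), and FH replicates 1 and 3 and vector replicates 2 and 3 in fasted livers (at most 0.0934). Efnb2, an ephrin of arteries, fell in fasted livers (log2 fold change -1.03, SE 0.25, adjusted p = 0.00359) and was not called in ob/ob livers (log2 fold change 0.38, SE 0.23, adjusted p = 0.172).

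Genes of junctions and of the vessel surface held the largest rises in ob/ob livers, and 4 of them rose on library totals too: Pecam1, Cdh5, Plvap and Vwf. On library totals 6.83% of all genes rose in ob/ob livers. Pecam1, an adhesion molecule found on all endothelium, was at 36.8, 39.1 and 41.1 CPM in ob/ob FH against 12.8, 15.6 and 19.3 CPM in ob/ob vector, and at 15.4, 15.4 and 14.2 CPM in fasted FH against 22.97, 26.7 and 23.6 CPM in fasted vector. Neither pair overlapped, with a 2.45-fold rise (log2 fold change 1.29, SE 0.14, adjusted p = 9.78e-06) in ob/ob livers and a 1.63-fold fall (log2 fold change -0.71, SE 0.14, adjusted p = 0.000957) in fasted livers. Cdh5, which encodes VE-cadherin, was at 40.5, 49.3 and 44.5 CPM in ob/ob FH against 13.9, 18.2 and 17.8 CPM in ob/ob vector, and at 13.99, 12.9 and 13.6 CPM in fasted FH against 16.1, 25.95 and 18.5 CPM in fasted vector. Its rise in ob/ob livers was 2.69-fold (log2 fold change 1.43, SE 0.17, adjusted p = 1.67e-05), and its fall in fasted livers was 1.498-fold (log2 fold change -0.58, SE 0.17, adjusted p = 0.0106) and was lost without vector replicate 2 (adjusted p = 0.0605). Esam, another junction molecule, had log2 fold changes of 0.63 in ob/ob livers, or 0.0070 on library totals, and -0.74 in fasted livers.

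Vwf and Plvap did not share the fall in fasted livers on the TMM scale. Vwf encodes von Willebrand factor, a clotting protein typical of large vessels. It was at 14.3, 18.2 and 17.4 CPM in ob/ob FH against 5.22, 5.99 and 5.60 CPM in ob/ob vector, and at 5.09, 6.68 and 7.71 CPM in fasted FH against 4.54, 4.72 and 4.45 CPM in fasted vector. It rose 2.96-fold in ob/ob livers (log2 fold change 1.57, SE 0.17, adjusted p = 9.65e-06) and 1.42-fold in fasted livers (log2 fold change 0.51, SE 0.18, adjusted p = 0.0266), with no overlap in either model. The fasted rise was lost without FH replicate 2 or 3 or vector replicate 1 or 3 (adjusted p at most 0.128). On library totals the fasted value was negative (-0.16) and the groups overlapped. Plvap encodes a protein of the diaphragms that close endothelial pores. It was at 44.8, 56.4 and 64.8 CPM in ob/ob FH against 16.3, 13.97 and 21.3 CPM in ob/ob vector, and at 23.5, 16.4 and 26.1 CPM in fasted FH against 18.1, 20.5 and 19.3 CPM in fasted vector. The ob/ob groups were far apart, a 3.22-fold rise (log2 fold change 1.69, SE 0.20, adjusted p = 1.46e-05), and the fasted groups overlapped (log2 fold change 0.19, SE 0.19, adjusted p = 0.424). On library totals the fasted log2 fold change was -0.48, not called, with every FH library below every vector library.

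Cd34, Emcn and Cldn5 were measured with wider errors, and each had at most 141 counts in a library. Cd34, a sialomucin of capillaries, had only 6 to 10 counts in the fasted FH libraries, or 0.424, 0.668 and 0.428 CPM, against 1.91, 1.49 and 2.19 CPM in fasted vector, a 3.66-fold fall (log2 fold change -1.87, SE 0.45, adjusted p = 0.00329). In ob/ob livers it was at 2.85, 3.90 and 3.75 CPM with FH against 1.10, 3.78 and 3.09 CPM with vector and was not called (log2 fold change 0.39, SE 0.36, adjusted p = 0.373). Emcn, the capillary and venous sialomucin endomucin, fell in fasted livers (log2 fold change -0.87, SE 0.28, adjusted p = 0.0158), which was lost without FH replicate 1 or vector replicate 1 (adjusted p at most 0.0663). It was not called in ob/ob livers (log2 fold change 0.46, SE 0.26, adjusted p = 0.155). Cldn5, a tight junction protein, was near 0 change in both (log2 fold change -0.09 in ob/ob and 0.04 in fasted livers), with wide SEs of 0.32 and 0.35.

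The transcription factors divided by gene. Sox17, a factor of arterial identity, was at 0.466, 0.988 and 1.03 CPM in ob/ob FH against 3.65, 3.78 and 3.71 CPM in ob/ob vector, and at 0.283, 1.002 and 1.07 CPM in fasted FH against 4.25, 2.75 and 4.98 CPM in fasted vector. These are 9 to 22 counts per library in ob/ob FH against 63 to 72 in ob/ob vector, and 4 to 20 in fasted FH against 46 to 75 in fasted vector. Every FH library lay below every vector library, with falls of 4.44-fold in ob/ob livers (log2 fold change -2.15, SE 0.39, adjusted p = 0.000478) and 4.94-fold in fasted livers (log2 fold change -2.30, SE 0.41, adjusted p = 0.000348). Erg, an ETS family factor that sustains endothelial identity, was at 8.12, 9.31 and 9.10 CPM in ob/ob FH against 14.4, 12.9 and 12.1 CPM in ob/ob vector, and at 5.09, 5.88 and 4.66 CPM in fasted FH against 11.1, 9.87 and 12.3 CPM in fasted vector. It fell 1.48-fold in ob/ob livers (log2 fold change -0.57, SE 0.15, adjusted p = 0.00521) and 2.13-fold in fasted livers (log2 fold change -1.09, SE 0.15, adjusted p = 6.82e-05), with no overlap in either.

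Gata4, needed for sinusoidal identity and also made by stellate cells, was called higher in ob/ob livers and not called in fasted livers on the TMM scale. It was at 16.8, 19.7 and 18.3 CPM in ob/ob FH against 8.75, 12.2 and 9.05 CPM in ob/ob vector (log2 fold change 0.87, SE 0.15, adjusted p = 0.000280), and at 11.6, 10.9 and 10.2 CPM in fasted FH against 9.78, 10.8 and 10.9 CPM in fasted vector, which overlapped (log2 fold change 0.05, SE 0.15, adjusted p = 0.785). Its FH effects differed between the models by 0.81 log2 units (adjusted p = 0.0316), a call lost in most fits that left out 1 library. The ob/ob rise was not called on library totals (log2 fold change 0.25, adjusted p = 0.200). In fasted livers Gata4 was called lower with FH on library totals, without overlap of the groups. On that scale 55.7% of all genes were called lower there. Sox18, a relative of Sox17, rose in ob/ob livers (log2 fold change 0.96, SE 0.30, adjusted p = 0.0152), which was lost without FH replicate 2 or vector replicate 1 (adjusted p at most 0.0552) and on library totals (adjusted p = 0.352). In fasted livers Sox18 was not called on the TMM scale (log2 fold change -0.44, SE 0.32, adjusted p = 0.256) and was called lower on library totals.

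The difference between the models was called for the sinusoidal markers and receptors and not called for Egfl7, Erg and Sox17. The FH effect in ob/ob minus that in fasted livers was 2.66 for Lyve1, 2.26 for Cd34, 2.11 for Flt4, 2.01 for Cdh5 and 2.002 for Pecam1, the 5 largest. The 9 sinusoidal markers and the 7 receptors all passed, with ranges of 1.19 to 2.66 and of 1.15 to 2.11, while 4.77% of all genes were called in that direction. Of the 7 ligands 4 passed, of the 8 junction and surface genes 7, and of the 4 transcription factors only Gata4. The FH effects on Egfl7, Erg and Sox17 differed by 0.14 (SE 0.28), 0.52 (SE 0.21) and 0.15 (SE 0.57), none called. Leaving out 1 library raised the adjusted p of 9 called genes past 0.05. Emcn passed only without fasted FH replicate 3, fasted vector replicate 3 or ob/ob vector replicate 3 (adjusted p at most 0.117 in the other 9 fits). Gata4 passed only without fasted FH replicate 1, fasted vector replicate 1, ob/ob FH replicate 1 or ob/ob vector replicate 2 (at most 0.0884 in the other 8). Wnt2 passed only without a fasted FH library or without ob/ob vector replicate 2 or 3 (at most 0.0724 in the other 7). Bmp2 was lost without fasted FH replicate 2, fasted vector replicate 2, ob/ob FH replicate 1 or 3 or ob/ob vector replicate 3 (at most 0.0854). The losses of Efnb2 (without ob/ob FH replicate 2 or 3 or fasted vector replicate 3, at most 0.0633), Vwf (without ob/ob FH replicate 2 or 3, at most 0.0620) and Robo4 (without ob/ob FH replicate 2, 0.0510) were fewer. Dll4 was lost without ob/ob FH replicate 2 or 3, ob/ob vector replicate 1, fasted FH replicate 3 or fasted vector replicate 3 (at most 0.0706), and Cd34 without ob/ob FH replicate 2 or 3, fasted FH replicate 1 or 3 or fasted vector replicate 3 (at most 0.0735).

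To ask which genes moved apart from endothelium in general, each gene was also fitted relative to the summed counts of 8 genes found on all endothelial cells (Pecam1, Cdh5, Tie1, Esam, Egfl7, Eng, Robo4 and Erg). These 8 did not move alike in ob/ob livers, where Pecam1 and Cdh5 rose and Egfl7 and Erg fell, so their own ratios are a description only. Of the other 27 genes, 2 were higher and 9 lower with FH in ob/ob livers, against 4.59% and 55.7% of all genes. In fasted livers 3 were higher and 9 lower, against 50.0% and 12.2% of all genes. Relative to TMM scaling, this measure shifts the log2 fold changes of all genes by a median of -0.71 in ob/ob and 0.68 in fasted livers.

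Of the 9 sinusoidal genes Stab1, Stab2, Clec4g, Mrc1 and Fcgr2b fell relative to the core in both models, as did 11.4% of all genes. Stab1 stood at 10.2, 13.6 and 13.9% of the core counts in ob/ob FH against 29.3, 29.4 and 30.7% in ob/ob vector, and at 13.9, 13.6 and 14.1% in fasted FH against 34.4, 43.4 and 47.8% in fasted vector. No FH library reached a vector library, and the ratio fell 2.37-fold in ob/ob livers (log2 fold change -1.24, SE 0.16, adjusted p = 8.82e-06) and 3.02-fold in fasted livers (log2 fold change -1.59, SE 0.16, adjusted p = 8.59e-07). Stab2 fell likewise (log2 -0.62 and -0.88), as did Clec4g (-0.74 and -0.56), Mrc1 (-0.69 and -0.54) and Fcgr2b (-0.50 and -0.47), in ob/ob and in fasted livers. The median over all genes was -0.72 in ob/ob livers, near these 4 ob/ob values, and 0.63 in fasted livers. Oit3, Ehd3 and Gpr182 were not called in either model, at 0.28, 0.09 and 0.37 in ob/ob and -0.01, -0.05 and 0.07 in fasted livers, and Lyve1 was at 0.34 in ob/ob livers, not called. Relative to all 35 genes in place of the core, Stab1 and Stab2 were lower in both models, while the fasted values of Clec4g, Mrc1 and Fcgr2b were not called (adjusted p = 0.110, 0.157 and 0.263), nor was Fcgr2b in ob/ob livers (adjusted p = 0.135). Fcgr2b was also lost relative to the core without fasted FH replicate 2 or fasted vector replicate 1 in fasted livers, and without FH replicate 2 or 3 or vector replicate 3 in ob/ob livers, and Mrc1 without fasted vector replicate 2 (adjusted p at most 0.0968). Sox17 showed the deepest fall of the 27, to 0.240, 0.427 and 0.444% of the core counts in ob/ob FH against 2.88, 2.76 and 2.72% in ob/ob vector (log2 fold change -2.88, SE 0.39, adjusted p = 1.52e-05), and to 0.299, 1.11 and 1.11% in fasted FH against 3.08, 1.70 and 3.27% in fasted vector (log2 fold change -1.64, SE 0.40, adjusted p = 0.00207).

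Of the 27 genes, Vwf and Plvap were the 2 above general endothelium in both models. Vwf stood at 7.36, 7.87 and 7.46% of the core counts in ob/ob FH against 4.11, 4.36 and 4.10% in ob/ob vector, and at 5.39, 7.39 and 7.99% in fasted FH against 3.28, 2.92 and 2.92% in fasted vector. The groups did not overlap, with rises of 1.80-fold (log2 fold change 0.85, SE 0.18, adjusted p = 0.000697) and 2.28-fold (log2 fold change 1.19, SE 0.19, adjusted p = 4.61e-05). Plvap rose 1.95-fold in ob/ob livers (log2 fold change 0.96, SE 0.18, adjusted p = 0.000269) and 1.82-fold in fasted livers (log2 fold change 0.87, SE 0.18, adjusted p = 0.000613), also without overlap. Among all genes 3.95% were called higher than the core in both models. Relative to the core 55.7% of all genes were called lower in ob/ob livers, and the median over all genes was -0.72. Rspo3 and Bmp2 fell relative to the core in ob/ob livers (log2 fold change -0.995, SE 0.28, adjusted p = 0.00630 for Rspo3, log2 fold change -0.72, SE 0.16, adjusted p = 0.00120 for Bmp2) and were not called in fasted livers. Their FH effects differed between the models (log2 -1.12, adjusted p = 0.0204, and -0.67, adjusted p = 0.0157), in a comparison where 72.3% of all genes were called lower and 0.453% higher. In the same test of the difference, over the 35 genes 4 were higher (Lyve1, Flt4, and the core genes Pecam1 and Cdh5) and 6 lower (Rspo3, Bmp2, Cldn5, Gata4, and the core genes Egfl7 and Erg), with a median of -0.03. The other 8 sinusoidal markers and the other 6 receptors were not called. The Lyve1 call was lost without fasted FH replicate 2 or 3, fasted vector replicate 2 or ob/ob FH replicate 3 (adjusted p at most 0.0724), that of Flt4 without replicate 3 of either fasted group, ob/ob FH replicate 2 or ob/ob vector replicate 1 or 2 (at most 0.0635), and that of Gata4 without fasted FH replicate 1 or 2, fasted vector replicate 2, ob/ob FH replicate 3 or ob/ob vector replicate 2 (at most 0.102). The Rspo3 difference was lost without fasted FH replicate 3, fasted vector replicate 2, ob/ob FH replicate 1 or ob/ob vector replicate 1 (adjusted p at most 0.0718).

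The other calls relative to the core were in 1 model each. In fasted livers Gata4 was higher (log2 fold change 0.74, SE 0.16, adjusted p = 0.000868), and Lyve1, Flt4 and Cd34 were lower (log2 -0.88, -0.53 and -1.20), of which Lyve1 and Flt4 were lost without fasted FH replicate 2 or 3 or fasted vector replicate 2 or 3, and Cd34 without fasted FH replicate 1 or 3 or fasted vector replicate 1 or 3 (adjusted p at most 0.127). In ob/ob livers Kdr was lower (log2 fold change -0.30, SE 0.13, adjusted p = 0.0497), which of the 12 fits without 1 library passed only without vector replicate 1 of either model (at most 0.169).

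**Figure D4:**
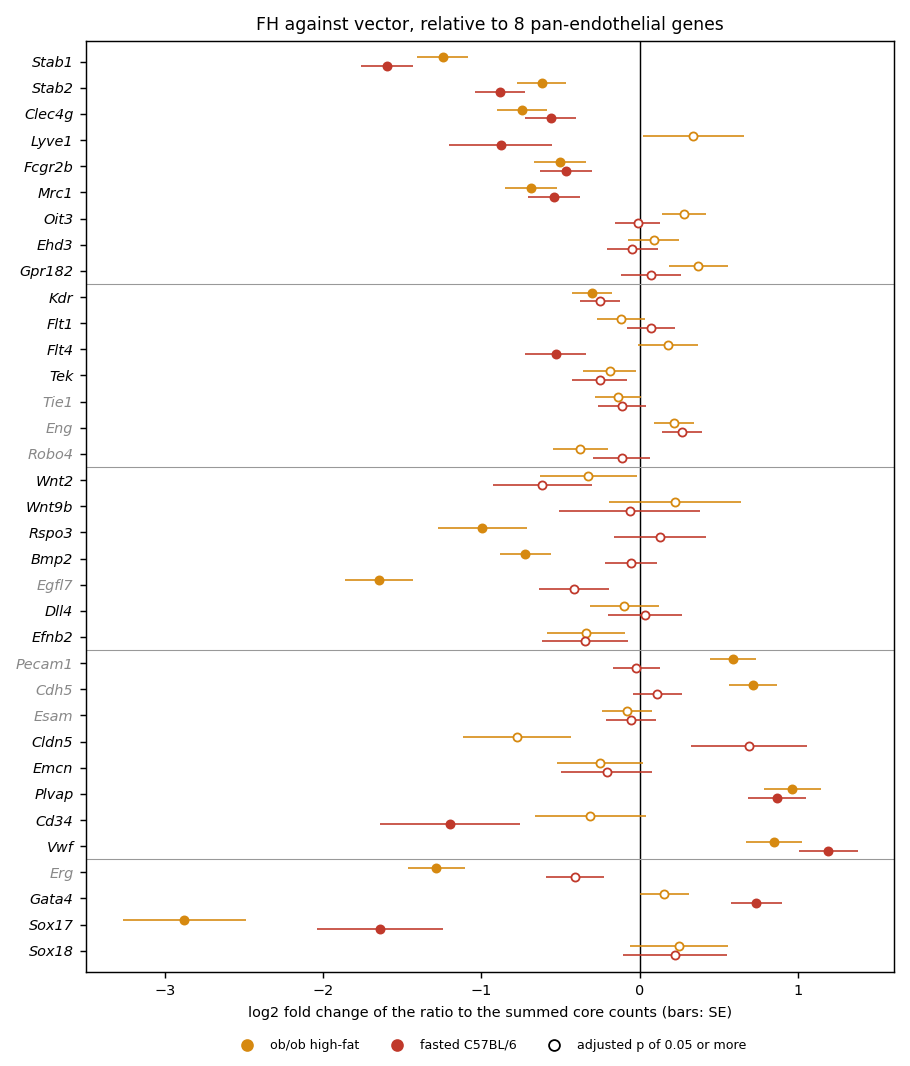
Log2 fold change, FH over vector, of each gene's ratio to the summed counts of 8 pan-endothelial genes, ob/ob above fasted in each row, with SE bars and filled points for an adjusted p under 0.05; names of the 8 core genes are grey. Stab1, Stab2, Clec4g, Fcgr2b, Mrc1 and Sox17 lie left of 0 in both models and Plvap and Vwf right of it.

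ETS factors such as Erg bind sites with GGAA at their centre. The 250 bases before the start of transcription are shown for 4 of the scavenger genes that fell against the core in both models. They are also shown for Egfl7 and Erg, which fell in both models on the TMM scale. The sequences are from RefSeq on GRCm38.p6, which held an entry for 22 of the 35 genes, and are written 5′ to 3′ along the gene; capitals mark the letters AGGAAG or their reverse complement CTTCCT. The windows are chr14:31168642-31168891 on the minus strand for Stab1, chr10:87007943-87008192 (minus) for Stab2, chr8:3720652-3720901 (minus) for Clec4g, chr2:14229164-14229413 (plus) for Mrc1, chr2:26580833-26581082 (plus) for Egfl7 and chr16:95586594-95586843 (minus) for Erg.
Stab1: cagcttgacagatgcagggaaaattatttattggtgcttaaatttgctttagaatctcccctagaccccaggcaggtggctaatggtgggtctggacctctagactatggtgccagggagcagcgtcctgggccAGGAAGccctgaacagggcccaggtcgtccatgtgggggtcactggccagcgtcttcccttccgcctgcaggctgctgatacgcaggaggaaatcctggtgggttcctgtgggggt
Stab2: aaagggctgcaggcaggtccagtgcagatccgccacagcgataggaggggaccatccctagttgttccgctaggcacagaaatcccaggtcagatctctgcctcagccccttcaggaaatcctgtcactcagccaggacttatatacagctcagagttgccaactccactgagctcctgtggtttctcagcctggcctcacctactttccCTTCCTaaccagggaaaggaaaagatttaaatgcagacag
Clec4g: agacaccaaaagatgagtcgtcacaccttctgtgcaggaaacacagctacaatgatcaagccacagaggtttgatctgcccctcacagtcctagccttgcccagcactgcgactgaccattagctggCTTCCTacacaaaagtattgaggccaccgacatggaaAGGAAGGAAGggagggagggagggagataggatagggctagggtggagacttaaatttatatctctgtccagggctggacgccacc
Mrc1: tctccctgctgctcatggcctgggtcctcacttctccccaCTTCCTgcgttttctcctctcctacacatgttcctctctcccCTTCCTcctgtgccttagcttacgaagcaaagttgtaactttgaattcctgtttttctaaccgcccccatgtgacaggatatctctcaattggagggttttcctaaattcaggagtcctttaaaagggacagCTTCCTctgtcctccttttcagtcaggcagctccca
Egfl7: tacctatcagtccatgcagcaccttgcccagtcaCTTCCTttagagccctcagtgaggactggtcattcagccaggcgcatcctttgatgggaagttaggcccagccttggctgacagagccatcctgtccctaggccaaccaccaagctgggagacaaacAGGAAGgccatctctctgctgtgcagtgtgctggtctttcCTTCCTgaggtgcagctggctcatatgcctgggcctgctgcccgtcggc
Erg: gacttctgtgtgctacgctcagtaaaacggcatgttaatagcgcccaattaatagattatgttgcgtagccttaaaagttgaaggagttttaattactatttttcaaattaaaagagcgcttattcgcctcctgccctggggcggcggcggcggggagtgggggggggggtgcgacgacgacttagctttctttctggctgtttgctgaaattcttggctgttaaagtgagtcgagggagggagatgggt
The letters occur 1 time each before Stab1 and Stab2, 3 times each before Clec4g, Mrc1 and Egfl7, and not before Erg. Of the 3 matches before Clec4g 2 overlap. Fcgr2b, which also fell against the core in both models, has an entry that is not shown and that held no match. At least 1 match was present in 11 of the 22 promoters (50%), and in 29.2% of 27025 promoters of the same length. The SOX letters ACAATG, searched on both strands, were in 1 of the 22 (4.55%) against 11% of all promoters, and the GATA letters AGATAA were in none of the 22, against 10.3% of all. A match describes these windows and is not evidence of binding.

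A second list held endothelial genes outside the 35. Of 34 tested genes of that list, 7 rose and 5 fell with FH in ob/ob livers (median log2 fold change 0.03), against 25.8% and 27.9% of all genes, while on library totals 2 rose and 19 fell (median -0.59), against 6.83% and 53.3%. In fasted livers 23 fell and 1 rose (median -0.97), against 27.6% and 27.4% of all genes, and on library totals 31 fell, against 55.7%. The difference between models was called for 16 of the 34, all with a positive difference, ob/ob minus fasted, against 4.77% of all genes in that direction. Ushbp1 fell in both models (log2 fold change -1.98 in ob/ob and -2.54 in fasted livers), as did Calcrl (-0.80 and -1.92), while Ets1 fell in fasted livers (-1.56) and Tspan7 and Mmrn2 rose in ob/ob livers (1.18 and 1.51). Of 6 tested VEGF and angiopoietin ligands 1 rose and 2 fell in ob/ob livers, against 25.8% and 27.9% of all genes. In fasted livers 3 fell, against 27.6%. On library totals 0 rose and 3 fell in each model, where 53.3% of all genes fell in ob/ob and 55.7% in fasted livers. Vegfa, the hepatocyte-made ligand of Kdr and Flt1, fell in both (log2 fold change -2.19, SE 0.16, adjusted p = 8.44e-07 in ob/ob livers and log2 fold change -1.76, SE 0.16, adjusted p = 3.32e-06 in fasted livers). Vegfd, a ligand of Flt4, fell in both as well (log2 fold change -1.01 and -2.18). Vegfc, another ligand of Flt4, rose in ob/ob livers (log2 fold change 0.62, SE 0.24, adjusted p = 0.0468), a call lost on library totals (log2 fold change -0.0032), and was not called in fasted livers (log2 fold change 0.29, SE 0.26, adjusted p = 0.349). Angpt1, a ligand of Tek, fell in fasted livers (log2 fold change -0.99, SE 0.37, adjusted p = 0.0376).

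Hepatocyte genes that respond to the endothelial ligands did not fall as a group on the TMM scale. Several were called lower on library totals, a smaller share than that of all genes. Of 16 targets of Wnt signalling 8 rose with FH in each model and the other 8 were not called. Of all genes 25.8% rose in ob/ob and 27.4% in fasted livers. On library totals 3 targets rose and 5 fell in ob/ob livers, against 6.83% and 53.3% of all genes. In fasted livers 3 rose and 4 fell on that scale, against 7.16% and 55.7% of all genes. Glul, glutamine synthetase of the cells around the central vein, had log2 fold changes of 1.16 in ob/ob and 1.31 in fasted livers, and Cyp2e1 of 1.17 and 1.75, all positive on library totals too. Of 7 targets of BMP signalling 1 rose and 1 fell in ob/ob livers and 3 rose in fasted livers, although on library totals 3 fell in ob/ob livers, where Hamp lost its call, and 1 rose and 2 fell in fasted livers, against 7.16% and 55.7% of all genes. Hamp, which encodes hepcidin and responds to Bmp2, was at 650, 565 and 809 CPM in ob/ob FH against 406, 404 and 72.8 CPM in ob/ob vector, and at 719, 632 and 812 CPM in fasted FH against 78.7, 196 and 129 CPM in fasted vector. It rose in fasted livers (log2 fold change 2.42, SE 0.49, adjusted p = 0.000978), also on library totals (log2 fold change 1.75). It passed in ob/ob livers (log2 fold change 1.20, SE 0.47, adjusted p = 0.0457), where vector replicate 3 was far below the other 2 and the log2 fold change was 0.74 without it (adjusted p = 0.0486). The ob/ob call was lost on library totals (log2 fold change 0.57, adjusted p = 0.318), with DESeq2 (0.0744), with only the 6 ob/ob libraries (0.112), and without any 1 FH library of either model or fasted vector replicate 3 (at most 0.122). Of the 9 hepatocyte markers tested 7 rose in ob/ob livers and 8 in fasted livers, against 25.8% and 27.4% of all genes. On library totals these counts were 3 and 4, against 6.83% and 7.16% of all genes.

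Markers of Kupffer and stellate cells were called in part with the endothelial genes. The 14 Kupffer cell markers summed to 749 to 1026 CPM in ob/ob FH against 365 to 569 CPM in ob/ob vector, where 11 rose, and to 279 to 308 CPM in fasted FH against 518 to 728 CPM in fasted vector, where 11 fell. The 13 stellate cell markers summed to 603 to 708 CPM in ob/ob FH against 368 to 389 CPM in ob/ob vector, with 8 higher, and to 232 to 423 CPM in fasted FH against 391.9 to 442 CPM in fasted vector, with 2 lower. Of all genes 25.8% were higher in ob/ob livers and 27.6% lower in fasted livers, so the stellate share in fasted livers was below that of all genes. On library totals 4 rose and 1 fell of each list in ob/ob livers, against 6.83% and 53.3% of all genes, and 13 Kupffer cell and 9 stellate cell markers fell in fasted livers, against 55.7%. Of 11 tested lymphocyte markers 2 rose and 2 fell in ob/ob livers and 2 fell in fasted livers; of 3 tested megakaryocyte and platelet markers, cells that also hold Vwf, 1 rose and 1 fell in fasted livers, and neither direction was called in ob/ob livers. The 5 tested cholangiocyte markers were not called for FH in either model. The difference between the models, ob/ob minus fasted, was called positive for 12 of 14 Kupffer cell and 9 of 13 stellate cell markers. It was called positive for 1 of 11 lymphocyte and 1 of 3 megakaryocyte markers, against 4.77% of all genes. The part of a change in cell makeup in the endothelial results was not tested.

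**Figure D5:**
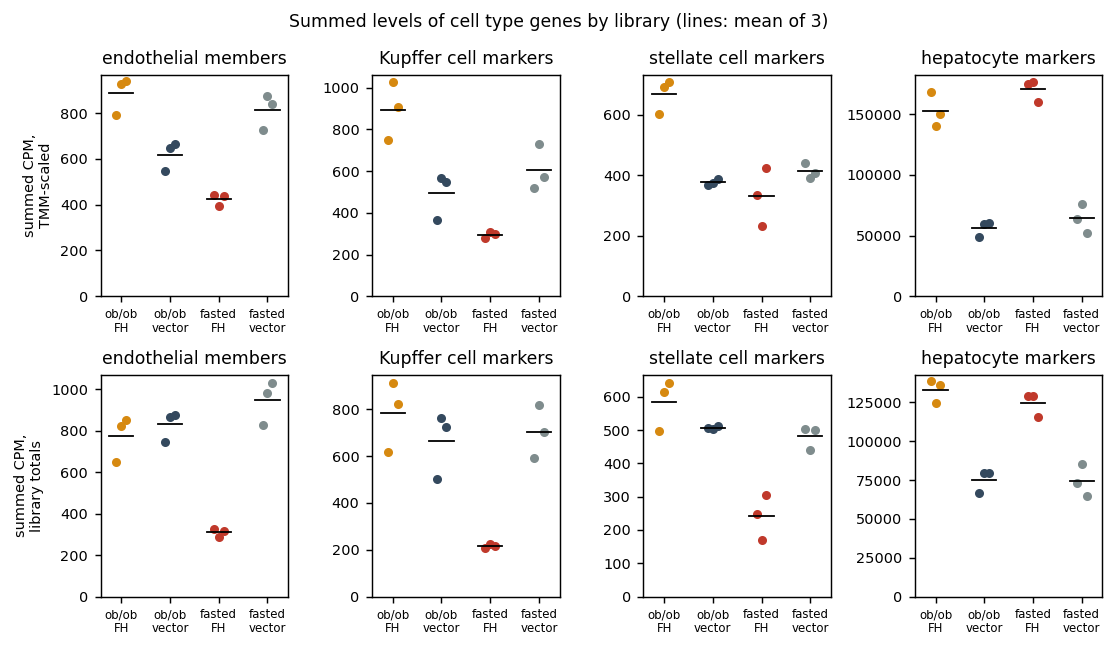
Summed CPM of the 35 endothelial genes and of Kupffer cell, stellate cell and hepatocyte markers in each library, TMM-scaled above and on library totals below, with ob/ob FH and vector left of fasted FH and vector. Endothelial, Kupffer and stellate sums were lowest in fasted FH on library totals, and the ob/ob FH endothelial sum was above ob/ob vector on the TMM scale only.

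With the vector alone, ob/ob livers held less of some endothelial transcripts than fasted C57BL/6 livers on the TMM scale. Of the 9 sinusoidal markers 5 were called lower on that scale and 1, Ehd3, on library totals. Of the 35 genes 8 were lower in ob/ob vector than in fasted vector libraries, against 8.18% of all genes: Lyve1, Ehd3, Flt1, Stab1, Pecam1, Esam, Oit3 and Clec4g. The other 27 were not called. The median over the 35 genes was -0.28. Ehd3 averaged 53.04 ± 11.3 CPM in ob/ob vector and 97.6 ± 18.1 CPM in fasted vector (log2 fold change -0.88, SE 0.18, adjusted p = 0.00469), and Flt1 8.91 ± 1.4996 CPM and 16.3 ± 2.62 CPM (log2 fold change -0.87, SE 0.16, adjusted p = 0.00265), with no overlap for either. These 2 were the calls that stood on library totals (4.21% of all genes), where all genes shifted by 0.21. They were 2 of the 4 genes called lower in the ratio to the core (log2 -0.71 and -0.69), where the median over all genes was 0.17. When only the 6 vector libraries were fitted 3 genes were called lower, and 534 of all 15228 genes, against 1245 in the main fit. Without fasted vector replicate 2 or 3 or ob/ob vector replicate 1 the count was 4, with 901, 828 and 801 of all genes lower. Without ob/ob vector replicate 2 it was 10, with 1553 of all genes lower.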

How the data were processed

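RNA-seq of 12 mouse liver libraries in 4 groups of 3 was deposited by the authors as 1 table of raw counts per gene. The submitters' processing notes name STAR 2.7.11a and the build GRCm39; per the labels, total RNA was extracted with TRIzol and made into stranded mRNA libraries. Neither a counting tool nor its annotation or strand handling is named in what was used here. From the deposited counts, edgeR 4.0.16 (R 4.3.3, limma 3.58.1) quasi-likelihood tests were fitted to all 12 libraries with 4 group means, 8 residual degrees of freedom, TMM scaling and the default filter (minimum count 10, minimum total 15). P-values were Benjamini-Hochberg adjusted over 15228 genes, with a threshold of 0.05. SEs were derived from the F statistic. A second fit set the library size to the summed counts of 8 pan-endothelial genes. Alternatives were library totals, RLE size factors, no filter, DESeq2 1.42.0, the compared libraries alone, scaling to all 35 genes, a replicate block and each library left out. The alternatives for Hamp were chosen after seeing the data. Genes of the other lists were named when called, by the smallest adjusted p, up to 3 a list, beside targets of the ligands described. The members and lists were chosen with earlier results of these data known. Promoters are RefSeq sequences. The fits were tested on simulated data.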

Additional observations from a re-analysis of the deposited data

Results flagged for a closer look

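For 28 of the 35 genes the FH effect differed between ob/ob and fasted livers in the test of the difference itself (edgeR, adjusted p between 0.000311 and 0.0464), against 4.77% of all genes in that direction. The difference of log2 fold changes, ob/ob minus fasted, was 1.77 for Stab1, 1.67 for Stab2, 1.19 for Clec4g, 2.66 for Lyve1, 1.33 for Fcgr2b, 1.27 for Mrc1, 1.69 for Oit3, 1.53 for Ehd3 and 1.68 for Gpr182. Among receptors it was 1.34 for Kdr, 1.21 for Flt1, 2.11 for Flt4, 1.45 for Tek, 1.38 for Tie1, 1.36 for Eng and 1.15 for Robo4. Among ligands it was 1.65 for Wnt2, 0.72 for Bmp2, 1.27 for Dll4 and 1.41 for Efnb2. Among junction and surface genes it was 2.00 for Pecam1, 2.01 for Cdh5, 1.37 for Esam, 1.33 for Emcn, 1.496 for Plvap, 2.26 for Cd34 and 1.06 for Vwf, and for the transcription factor Gata4 it was 0.81. Relative to the summed core counts the difference was called positive for 4 of the 28, against 0.453% of all genes. These were Lyve1, Flt4, and the core genes Pecam1 and Cdh5, whose own ratios are a description only. Over all 35 genes it was called negative for 6, against 72.3% of all genes. The ob/ob FH libraries alone carried female transcripts, and the part of sex in these differences was not tested.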

How the results depend on the processing

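Precision is limited by 3 libraries a group and by low counts of Sox17, Cd34 and Wnt9b. On library totals the fasted count of higher genes was 0 and the median -1.47, the ob/ob counts were 6 higher and 10 lower with a median of -0.10, and in vector livers 2 were lower with a median of -0.072. The fasted count of higher genes was also 0 with no filter, with only the libraries compared and with DESeq2, and 3 genes were lower in vector livers when only those libraries were fitted. Scaled to all 35 genes in place of the core, 3 were lower in fasted livers, 4 higher in ob/ob livers and 2 higher in ob/ob than in fasted vector livers. Signs turned on library totals in fasted livers for Cldn5 (-0.64), Plvap (-0.48), Vwf (-0.16) and Gata4 (-0.62), and in ob/ob livers for Stab2 (-0.51), Fcgr2b (-0.43), Mrc1 (-0.59), Kdr (-0.21), Flt1 (-0.028), Tek (-0.10), Tie1 (-0.033), Robo4 (-0.27), Wnt2 (-0.25), Dll4 (-0.00268), Efnb2 (-0.24), Emcn (-0.16) and Cd34 (-0.22). Between vector livers they turned for Eng (0.15), Bmp2 (0.15), Plvap (0.036), Gata4 (0.14), Sox17 (0.10) and Sox18 (0.013). Elsewhere they turned for Cldn5 with RLE (-0.00486) and DESeq2 (-0.0083), Bmp2 with no filter (0.00088), Mrc1 with only the libraries compared (-0.014), and, scaled to all 35 genes, Kdr (0.0020) and Bmp2 (0.19). The cause was not tested. Same-numbered libraries did not deviate together (correlations -0.21 to 0.12); with the replicate block, 28 genes were lower and 1 higher in fasted livers, 18 higher and 4 lower in ob/ob livers, the difference was called for 27, 8 were lower in vector livers, and Hamp in ob/ob livers had an adjusted p of 0.0531. Some signs or counts moved when 1 library at a time was left out. In fasted livers the ranges were the count of higher genes 0 to 1, Cldn5 -0.24 to 0.34, Gata4 -0.062 to 0.10. In ob/ob livers they were Stab2 -0.027 to 0.26, Clec4g -0.12 to 0.042, Mrc1 -0.10 to 0.12, Bmp2 -0.11 to 0.094, Cldn5 -0.30 to 0.31. In the difference they were Egfl7 -0.0017 to 0.43, Cldn5 -0.45 to 0.27, Sox17 -0.22 to 0.46. Between vector livers they were the count of lower genes 4 to 10, Mrc1 -0.41 to 0.013, Eng -0.14 to 0.011, Dll4 -0.078 to 0.12, Gata4 -0.24 to 0.021, Sox17 -0.31 to 0.090, Sox18 -0.36 to 0.069. Relative to the core in fasted livers they were Rspo3 -0.079 to 0.43, Bmp2 -0.12 to 0.026. Relative to the core in ob/ob livers they were the count of higher genes 2 to 4, Cd34 -0.66 to 0.0069. Relative to the core in the difference they were the count of higher genes 0 to 3, the count of lower genes 2 to 5. Relative to the core between vector livers they were the count of higher genes 0 to 1.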
